A study of Mus musculus with 6 samples.

Results

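Motile cilium genes were followed in whole mouse lung, as a set of 41 named genes that cover the regulators, the dynein motors and the scaffold of the beating cilium. Gene identifiers were paired with mouse symbols, and 39 of the 41 had a row among the 24061 genes of the count table. Dnah3 and Dnah12 were not analysed here. RNA was measured by bulk sequencing in 2 groups of 3 libraries. The control group had the genotype CCSP/-. The other group had the genotype CCSP/TGFalpha, and mice of both groups were on doxycycline for 3 weeks. Both genotypes name CCSP, a secreted protein of airway club cells with a promoter that drives transgenes in secretory lung epithelium. TGFalpha is a ligand of the EGF receptor, and the series concerns the lung fibrosis it induces. The labels give no strain, sex or age, and they do not say whether each library was 1 animal, so p-values measure the spread between these libraries only.

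Multiciliated cells line the conducting airways beside club cells and move mucus out of the lung. The coactivator Mcidas starts their differentiation, and the transcription factors Foxj1, Rfx2 and Rfx3 turn on the genes of the axoneme, the microtubule core of the cilium. Outer and inner dynein arms slide the microtubule doublets of the axoneme, and the radial spokes, the central pair and the nexin-dynein regulatory complex set the timing of that sliding. Loss of many of these genes causes primary ciliary dyskinesia, in which mucus is not cleared.

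RFX factors bind an inverted repeat called the X-box, so the promoter windows of the members were searched for it. A window ran from 250 bases before to 50 bases after each start site in the RefSeq table on GRCm38.p6, and 34 of the 39 members had one. A single arm of it, GTTGCC, searched on both strands, was present in 18 of these 34 genes (52.9%), against 14.7% of the 12516 tested genes with a window. Among the 14 genes with a window that fell in the comparison described next, 7 held it, as did 11 of the 20 that did not pass the test. The stretches below are shown because each belongs to a gene that fell and has the arm, in capitals, wholly before the start site. They read 5′ to 3′ on the strand of the gene.
Cfap44: ggacgttgctatGGCAACcgcagtaaacgg
Hydin: tgcggttgctgtGGCAACagatggt
Ccdc113: ttcagttgtctaGGCAAC
Deup1: ccgcgtctccatGGCAACccactgggaacc
Dnah10: cgcgctggcgccGTTGCCcaggtccccgtt
Sntn: tgtcattattcaGTTGCCatggaatgaatg
On GRCm38.p6 these are chr16:44394768-44394797 (plus strand) for Cfap44, chr8:110266952-110266976 (plus) for Hydin and chr8:95534082-95534099 (plus) for Ccdc113. Those of Deup1, Dnah10 and Sntn are chr9:15627908-15627937 (minus), chr5:124725053-124725082 (plus) and chr14:13670798-13670827 (plus). The start site is that of each window. By the gene coordinates used here, Cfap44, Hydin, Ccdc113 and Deup1 begin upstream of or within their stretch, and Dnah10 and Sntn after it.

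In the stretches of Cfap44, Hydin, Ccdc113 and Deup1 the arm follows a GT that stands 6 bases ahead of it, as in a degenerate inverted repeat. This pattern (GT, any 6 bases, GGCAAC), chosen after these stretches were read and overlapping the single arm by construction, was present on either strand in 8 of the 34 members (23.5%) and in 2.25% of the tested genes. A strict X-box with both arms (GTTNCC and GGNAAC, 1 to 3 bases apart, both strands) was in no member window and in 0.999% of tested genes. Among 52 other ciliary motility genes with a window, the strict site was in 5.77%, the single arm in 44.2% and the degenerate repeat in 13.5%, and the differences from the members were not tested. The forkhead core TGTTTAC was in 3 members (8.82%, against 3.25%) and the CCAAT box in 15 (44.1%, against 42.5%). These are matches of letters and do not show binding.

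Libraries held 21479006 to 24914322 counts, and each pair within a group differed by far more than counting noise. Control replicate 1 and TGFalpha replicate 1 stood apart from the other libraries. In them the summed level of 4 skeletal muscle markers was 923 and 1660 CPM (counts scaled by TMM to a common library size), against 51.8 to 67.1 CPM in the other 4. Their summed level of 5 basal cell markers was 44.4 and 62.6 CPM against 3.62 to 9.38, and Krt5 was at 0 in control replicates 2 and 3. Counts are therefore also given without both of these libraries. The mouse Tgfa row did not separate the groups: it read 26.4, 22.6 and 28.4 CPM in controls and 26.6, 25.9 and 29.9 CPM in CCSP/TGFalpha lungs. That row holds transgene reads only as far as the transgene matches the mouse gene.

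All 39 motile cilium genes had lower fitted levels in CCSP/TGFalpha lungs than in control lungs, and 16 of them fell, the term used here for an edgeR adjusted p under 0.05. Over all 16089 genes tested 8.33% changed, 3.29% as a fall and 5.03% as a rise, and 49.1% had a value below 0. No motile cilium gene rose. The median log2 fold change of the 39 genes was -1.01, against 0.01 over all genes tested, and single genes ran from -1.55 for Cfap43 to -0.21 for Ccno. The genes that fell were lower by 47.8% to 65.9% on mean CPM. For 35 of the 39 genes every CCSP/TGFalpha library lay below every control library, as it did for 15.5% of all genes tested. The exceptions were Ccno, Ccdc40, Drc1 and Tekt4. Mcidas, counted among the 39 and the 35, passed the filter on low counts only through the controls. In lung tissue as a whole, fewer ciliated cells and less cilium RNA per cell cannot be told apart.

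**Figure D1:**
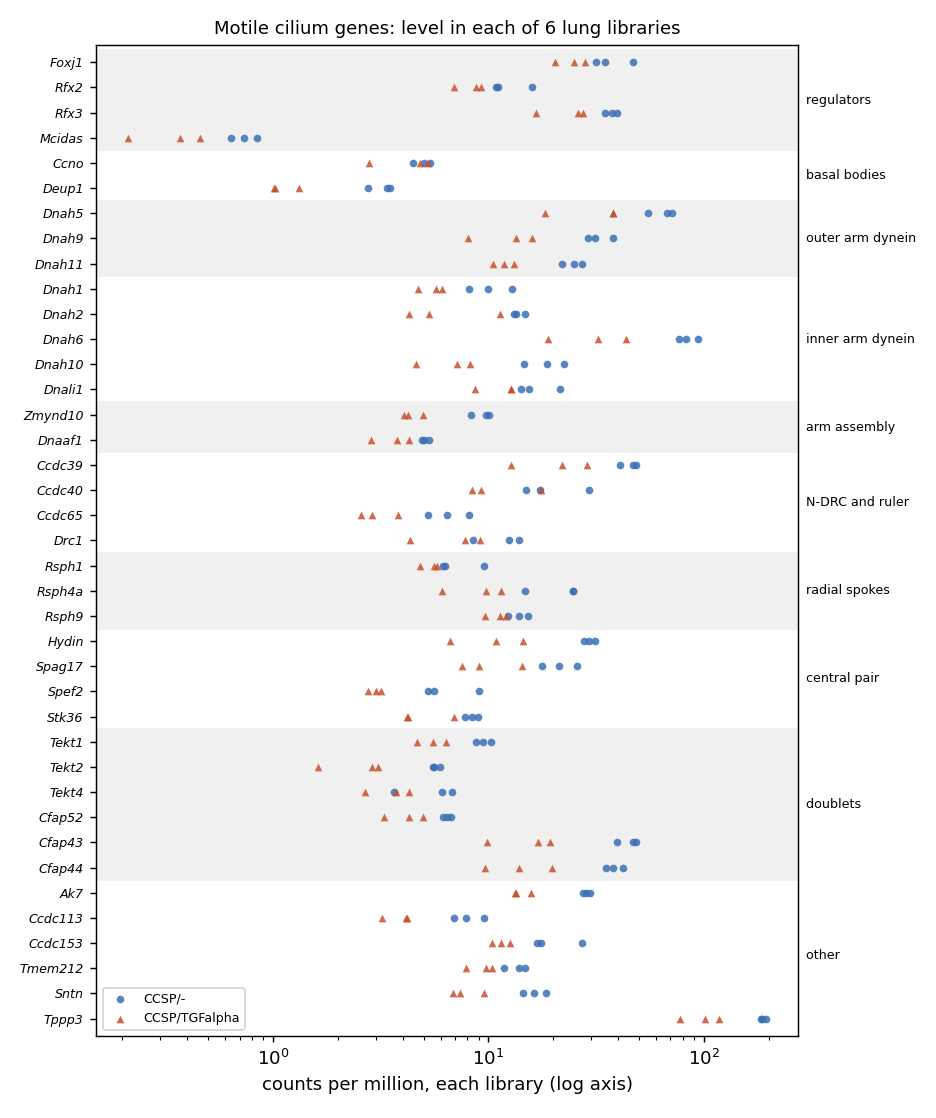
Level of each of the 39 motile cilium genes in the 3 CCSP/- and 3 CCSP/TGFalpha lung libraries, in CPM on a log axis, grouped by role. Circles (CCSP/-) lie to the right of triangles (CCSP/TGFalpha) without overlap for 35 genes.

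Levels differed widely between members but none was silent, with single counts from 5 (Mcidas) to 4849 (Tppp3). Per kilobase of the longest coding transcript, Tppp3 stood highest in controls at 135 CPM per kilobase, followed by Ccdc153 (18.9) and Tmem212 (18.8), and Mcidas was lowest at 0.311. The defining genes of ciliated cells were thus detected in every library of both groups.

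The regulators were lower in CCSP/TGFalpha lungs without passing the edgeR test. With DESeq2, Foxj1 and Rfx3 passed (adjusted p = 0.038 and 0.029), and Rfx2 and Mcidas did not (0.11 and 0.37). Neither Foxj1 nor Rfx3 passed with limma-voom (adjusted p = 0.092 and 0.071). Foxj1, the master regulator of motile cilia (gene ID 15223, chromosome 11, 116330704 to 116335499), read 47, 34.8 and 31.7 CPM in controls and 20.3, 28.1 and 24.9 CPM in CCSP/TGFalpha lungs, each in the order of replicates 1 to 3 as in all values that follow. The groups did not overlap, but the highest CCSP/TGFalpha library was close to the lowest control (log2 fold change -0.63 ± 0.20, SE; edgeR adjusted p = 0.0913). Rfx3 read 37.5, 34.7 and 39.5 CPM against 16.6, 27.5 and 26.1 CPM, with TGFalpha replicate 1 well under the rest (log2 fold change -0.67 ± 0.21, edgeR adjusted p = 0.0845). Rfx2 had a similar value of -0.60 ± 0.23 (adjusted p = 0.144). Without both replicates 1, the values of Foxj1, Rfx3 and Rfx2 were -0.33, -0.47 and -0.48 (edgeR adjusted p = 0.4, 0.22 and 0.37). Mcidas was near the limit of counting, at 0.639 to 0.843 CPM in controls and 0.213 to 0.461 CPM in CCSP/TGFalpha lungs, and its 95% interval ran from -2.41 to 0.26. It passed the filter on low counts only through the controls.

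The pair of genes for building many basal bodies gave different values. Deup1, which encodes the scaffold of the deuterosome on which new centrioles form, read 3.49, 2.75 and 3.38 CPM in controls and 1.02, 1.32 and 1.01 CPM in CCSP/TGFalpha lungs. The CCSP/TGFalpha libraries lay close together and far below the controls (log2 fold change -1.52 ± 0.35, edgeR adjusted p = 0.0392), although the call was lost whenever any 1 library was left out (adjusted p between 0.077 and 0.16). Ccno, the cyclin O gene needed for the same step and the neighbour of Mcidas on chromosome 13, read 5.34, 4.45 and 5.02 CPM against 4.8, 2.8 and 5.24 CPM. Its groups overlapped, and its log2 fold change of -0.21 had a 95% interval from -0.92 to 0.5. The difference between Deup1 and Ccno was not tested.

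Genes of the outer dynein arm, the main power source of the beat, were lower in every CCSP/TGFalpha library, and 2 of 3 fell. Dnah9 read 31.1, 38 and 28.9 CPM in controls and 8.08, 13.4 and 16 CPM in CCSP/TGFalpha lungs, so its highest CCSP/TGFalpha library was far under its lowest control (log2 fold change -1.39 ± 0.26, edgeR adjusted p = 0.0201). Dnah11, the heavy chain of the proximal part of the cilium, fell as well, from 24.9, 27.2 and 22 CPM to 10.5, 11.8 and 13.2 CPM (-1.06 ± 0.17, adjusted p = 0.0117). Dnah5, the heavy chain most often mutated in ciliary dyskinesia, read 67.7, 71.1 and 55.3 CPM against 18.3, 37.7 and 37.8 CPM. TGFalpha replicate 1 lay far under the other libraries of its group. Dnah5 did not pass (edgeR, -1.05 ± 0.27, adjusted p = 0.0525), but it did with limma-voom (adjusted p = 0.041) and DESeq2 (0.0024). Leaving out control replicate 2 ended the calls of Dnah9 and Dnah11 (adjusted p = 0.084 and 0.062), and that of Dnah9 was also lost without control replicate 3 (0.069) or TGFalpha replicate 2 (0.055).

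Among 5 inner arm chains with a row, which shape the bend of the cilium, 2 fell. Dnah6, the most abundant heavy chain of the set per kilobase, read 83.1, 94.1 and 76.3 CPM in controls and 18.9, 32.2 and 43.7 CPM in CCSP/TGFalpha lungs (log2 fold change -1.42 ± 0.28, edgeR adjusted p = 0.0245). Dnah10, a heavy chain of the double-headed inner arm, read 22.4, 18.7 and 14.7 CPM against 4.63, 8.18 and 7.16 CPM (-1.48 ± 0.27, adjusted p = 0.0181). All CCSP/TGFalpha values of both genes lay well below the controls. Dnah1, Dnah2 and the light intermediate chain gene Dnali1 had values of -0.90, -0.98 and -0.58 and did not pass, and that of Dnali1 was -0.37 without control replicate 2. Dnah2 rested on its libraries most: TGFalpha replicate 3, at 11.3 CPM, was near the controls (13.1 to 14.8) while the other 2 were at 4.29 and 5.3 CPM, and without TGFalpha replicate 3 it passed (-1.53, adjusted p = 0.017). The calls of Dnah6 and Dnah10 were lost without control replicate 2 (adjusted p = 0.099 and 0.074) or control replicate 3 (0.088 and 0.05), and that of Dnah6 without TGFalpha replicate 2 (0.07).

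Dynein arms are put together in the cytoplasm by assembly factors. Zmynd10, which encodes one of them, read 8.35, 10.1 and 9.73 CPM in controls and 4.25, 4.98 and 4.06 CPM in CCSP/TGFalpha lungs (log2 fold change -1.08 ± 0.23, edgeR adjusted p = 0.029), with a clear gap between the groups. Dnaaf1 had a smaller difference, -0.49, with a 95% interval from -1.11 to 0.14. Zmynd10 kept its call only without control replicate 1, and its adjusted p was between 0.055 and 0.12 without any other library.

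Ccdc39 and Ccdc40 encode partners of the ruler that spaces the parts of the axoneme. Ccdc39 fell, from 48.5, 40.9 and 46.8 CPM to 12.8, 28.6 and 22 CPM (log2 fold change -1.10 ± 0.27, edgeR adjusted p = 0.0454). Ccdc40 read 17.4, 29.4 and 14.9 CPM against 8.37, 9.29 and 17.6 CPM, and its groups overlapped because TGFalpha replicate 3 lay among the controls (-0.81 ± 0.35, adjusted p = 0.182). Its value was -0.46 without control replicate 2 and -1.23 without TGFalpha replicate 3. Ccdc65 and Drc1, of the nexin-dynein regulatory complex that links neighbouring doublets, had values of -1.10 ± 0.30 and -0.71 ± 0.32 and did not pass (adjusted p = 0.0587 and 0.2), and Drc1 was at -0.45 without TGFalpha replicate 1. The Ccdc39 call held without TGFalpha replicate 2 only, with adjusted p between 0.069 and 0.16 when one of the others was left out.

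Of the radial spoke head genes, Rsph4a fell and Rsph1 and Rsph9 did not pass. Rsph4a read 24.6, 14.8 and 24.7 CPM in controls and 6.08, 9.7 and 11.4 CPM in CCSP/TGFalpha lungs (log2 fold change -1.24 ± 0.29, edgeR adjusted p = 0.0404). Control replicate 2 was the lowest control, yet above all CCSP/TGFalpha libraries. Rsph1 and Rsph9 had smaller differences of -0.44 and -0.33, with 95% intervals from -1.05 to 0.17 and from -0.75 to 0.09. The Rsph1 value was -0.21 without control replicate 3. Rsph4a passed without TGFalpha replicate 3 (adjusted p = 0.048) and in no other fit with 1 library left out (0.061 to 0.16).

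Central pair genes included some of the largest differences. Hydin, which encodes a giant protein of a central pair projection (gene ID 244653, chromosome 8, 110266968 to 110610253), read 31.2, 29.2 and 27.8 CPM in controls and 6.63, 10.9 and 14.5 CPM in CCSP/TGFalpha lungs. The controls were close together and every CCSP/TGFalpha library lay far below them (log2 fold change -1.46 ± 0.27, edgeR adjusted p = 0.0191). Spag17, of another projection, fell from 21.3, 25.8 and 17.8 CPM to 7.52, 9.01 and 14.4 CPM (-1.07 ± 0.27, adjusted p = 0.0471). Spef2 and the kinase-related gene Stk36, needed to build the central pair, were lower in every library without passing (-1.15 ± 0.30 and -0.71 ± 0.27, adjusted p = 0.054 and 0.139). Hydin and Spag17 no longer passed without control replicate 2 (adjusted p = 0.074 and 0.17) or 3 (0.078 and 0.12) or TGFalpha replicate 2 (0.057 and 0.12), and Spag17 also did not pass without control replicate 1 (0.077) or TGFalpha replicate 1 (0.14).

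Cfap43 had the largest fitted difference of all members. With Cfap44 it encodes the complex that tethers an inner dynein to the doublet. Cfap43 (gene ID 100048534, chromosome 19, 47736857 to 47837454) read 47.1, 48.5 and 39.7 CPM in controls and 9.9, 17 and 19.3 CPM in CCSP/TGFalpha lungs (log2 fold change -1.55 ± 0.25, edgeR adjusted p = 0.012). Cfap44 was close to it, at 42, 37.9 and 35.1 CPM against 9.69, 13.8 and 19.8 CPM (-1.41 ± 0.25, adjusted p = 0.0181). Genes of the filaments and ribs inside the doublets gave smaller values and did not pass with edgeR: Tekt1 -0.78, Tekt2 -1.18, Tekt4 -0.62 and Cfap52 -0.63. Tekt2 passed with DESeq2 (adjusted p = 0.0096) and limma-voom (0.047), and Tekt1 with DESeq2 only (0.022). Tekt4 and Cfap52 passed with neither. Tekt4 overlapped between the groups, since control replicate 1 (3.65 CPM) was under TGFalpha replicates 1 and 2. Both Cfap calls were lost without control replicate 2 (adjusted p = 0.059 for Cfap43 and 0.069 for Cfap44), and that of Cfap44 also without control replicate 3 (0.068) or TGFalpha replicate 2 (0.058).

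The last 6 members are ciliated cell genes with other roles, and 4 of them fell. Ak7, an adenylate kinase gene of the cilium (gene ID 78801, chromosome 12, 105703858 to 105782447), had the smallest standard error of the set, with 29.6, 28.5 and 27.5 CPM in controls and 13.3, 13.4 and 15.8 CPM in CCSP/TGFalpha lungs. Its adjusted p of 0.00902 (edgeR, log2 fold change -1.01 ± 0.15) was the smallest of the set, and it was the 1 member that passed in all 6 fits with a library left out (0.015 to 0.047). Tppp3, which encodes a tubulin-binding protein and was the most abundant member, read 195, 186 and 185 CPM against 117, 77.7 and 101 CPM (-0.94 ± 0.18, adjusted p = 0.0205). Its controls lay close together and all CCSP/TGFalpha libraries were well below.

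Sntn, of the ciliary tip, read 18.5, 14.5 and 16.2 CPM in controls and 7.35, 9.5 and 6.83 CPM in CCSP/TGFalpha lungs (log2 fold change -1.05 ± 0.21, edgeR adjusted p = 0.0239). Ccdc113, a coiled-coil gene of the axoneme, read 6.94, 9.58 and 7.9 CPM against 4.21, 3.21 and 4.15 CPM (-1.08 ± 0.26, adjusted p = 0.0418). Neither gene overlapped between the groups. Ccdc153 and Tmem212, used as ciliated cell markers, were lower in every CCSP/TGFalpha library but did not pass (-0.84 ± 0.22 and -0.53 ± 0.20, adjusted p = 0.0543 and 0.136). Ccdc113 lost its call without any 1 library (adjusted p between 0.054 and 0.14), Sntn without any but TGFalpha replicate 2 (0.052 to 0.1), and Tppp3 when control replicate 2 (0.078) or 3 (0.093) or TGFalpha replicate 2 (0.053) was left out.

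**Figure D2:**
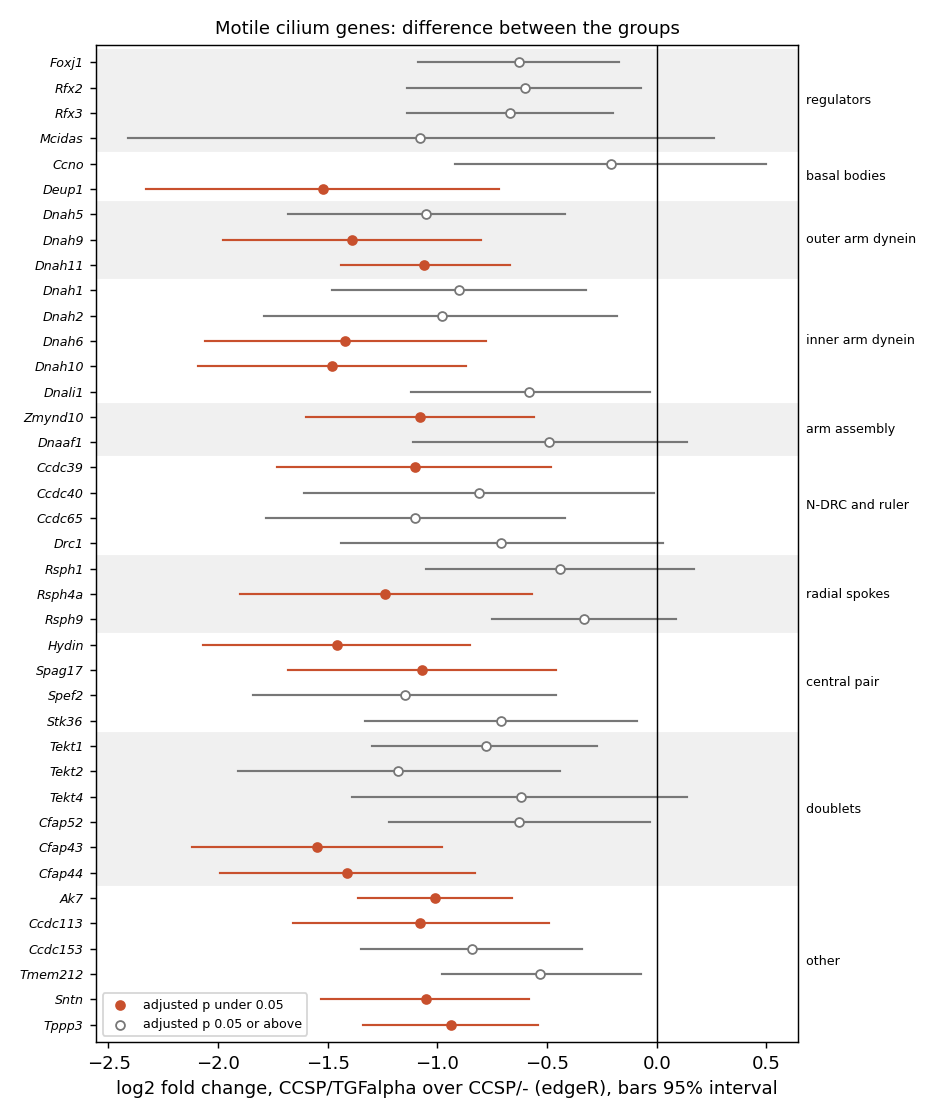
Log2 fold change of each motile cilium gene, CCSP/TGFalpha over CCSP/-, with its 95% interval (edgeR, 3 libraries per group). All 39 points lie below 0, the interval of 32 lies wholly below 0, and the 16 filled points passed at an adjusted p under 0.05.

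Other genes of ciliary motility, listed apart from the members, were mostly lower as well. Of 64 with a row 60 were tested, and 20 of these fell (33.3%, against 3.29% of all genes tested) and none rose. Their median log2 value was -0.81, with 6 values above 0. Cfap65, an axonemal gene, had the smallest adjusted p, with 34, 33.4 and 31.1 CPM in controls and 7.31, 10.4 and 13.4 CPM in CCSP/TGFalpha lungs (-1.66, edgeR adjusted p = 0.00675). Cdhr3, a cadherin gene of ciliated cells, followed at -1.04 (adjusted p = 0.00895), a call that ended when control replicate 3 was left out (0.055). Rsph3b was the leading gene in the other direction, at 0.19 (adjusted p = 0.528), and its reads cannot be separated with certainty from those of its near copy Rsph3a. The 20 falls became 10, 2 and 1 when control replicate 1, 2 or 3 was left out, where 2.9%, 0.261% and 0.206% of all genes fell. They became 3, 7 and 18 without TGFalpha replicate 1, 2 or 3, where 0.574%, 0.918% and 2.92% of all genes fell.

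Among 16 tested regulators of multiciliated cell differentiation and centriole formation outside the set none rose, where 5.03% of all genes tested did. Myb was the single fall besides Rfx4, where 3.29% of all genes tested fell. The median of the 16, Rfx4 included, was -0.28. Myb, which acts early in multiciliated differentiation and also in blood cells, read 18.5, 19.3 and 18.2 CPM in controls and 6.33, 8.68 and 10.3 CPM in CCSP/TGFalpha lungs (-1.15, edgeR adjusted p = 0.0199). Rfx4, another RFX factor gene, had 12, 25 and 18 counts in controls and 0 in each CCSP/TGFalpha library. With the CCSP/TGFalpha group set at a floor of 3 counts it was 19.2-fold lower, a figure that allows for counting noise only. It passed the filter on low counts only through the controls, so it had to differ and its call is not used. Tfdp1, a partner of E2F factors, was higher at 0.59 (adjusted p = 0.0503). The Myb call was lost without control replicate 2 (adjusted p = 0.084) or 3 (0.09) or TGFalpha replicate 2 (0.056).

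Intraflagellar transport and BBSome genes build and maintain primary as well as motile cilia, so many lung cells express them. With edgeR none of 40 tested fell, where 3.29% of all genes tested fell. DESeq2 gave 2 falls, where 7.95% of all genes fell. At an unadjusted p below 0.05, 7 were lower and 2 higher, where 12.8% of the 16089 genes tested were lower and 2281 higher. Values below 0 were found for 29 of the 40 (72.5%, against 49.1% of all genes tested). Without overlap between groups, 12 lay lower (30%, against 15.5%) and 3 higher (against 2850 of the 16089). The median log2 fold change of the 40 was -0.13. Their summed level was 1010 to 1050 CPM in controls and 954 to 996 CPM in CCSP/TGFalpha lungs, a narrow gap. Ift27 rose, from 8.63, 7.98 and 6.35 CPM to 14.1, 13 and 14.2 CPM (0.84, edgeR adjusted p = 0.0408), a call lost without any 1 library (adjusted p between 0.055 and 0.16). Traf3ip1, a transport subunit gene, was lower at -0.59 (adjusted p = 0.0582). The difference between this list and the motile cilium genes was not tested.

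**Figure D3:**
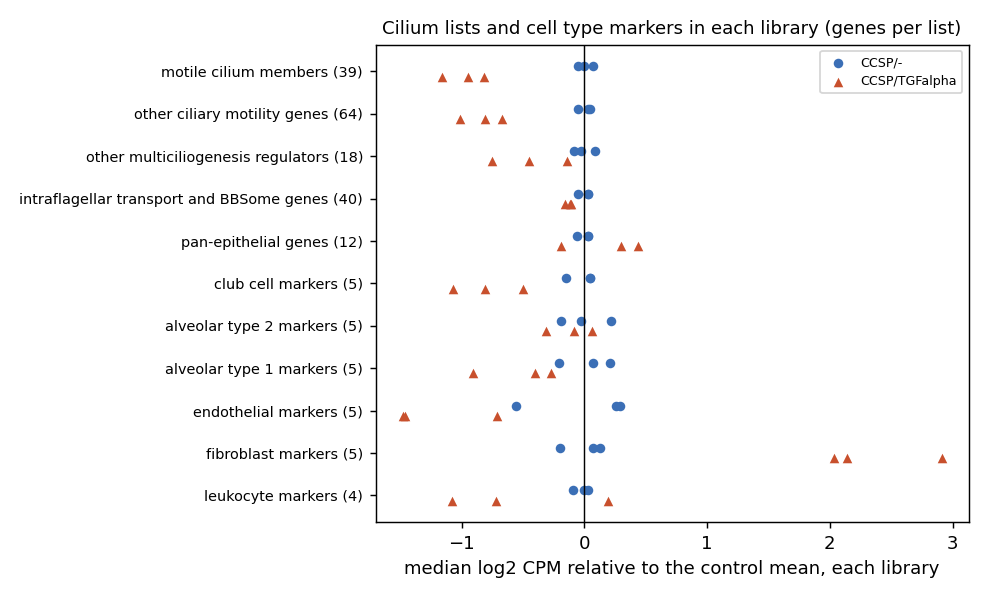
Median over each gene list of the log2 CPM relative to the control mean, for each CCSP/- library (circles) and each CCSP/TGFalpha library (triangles), with the number of genes in brackets. The motile cilium genes lie between -1.16 and -0.82 in CCSP/TGFalpha libraries, while intraflagellar transport and BBSome genes lie between -0.16 and -0.11.

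Markers of some other cells changed between the groups as well, where 3.29% of all genes tested fell and 5.03% rose. In the fibroblast list 4 of 5 markers rose, with the smallest adjusted p for the collagen genes Col3a1 and Col1a1 (edgeR, 0.00217 and 0.00311, log2 fold change 2.52 and 2.42), and the summed level went from 1180 to 1350 CPM in controls to 4260 to 7030 CPM in CCSP/TGFalpha lungs. Of 5 club cell markers 2 fell, with sums of 9250 to 11500 CPM against 5090 to 6770 CPM, namely Gabrp and Scgb1a1, the gene of CCSP. Gabrp lost its call without any library but TGFalpha replicate 3 (adjusted p between 0.056 and 0.13) and Scgb1a1 without any but control replicate 2 (0.08 to 0.16). Of 5 endothelial markers 3 fell (1740 to 3160 CPM against 896 to 1640 CPM), and no alveolar type 2 marker of 5 passed (10200 to 13400 CPM against 11300 to 13600 CPM). Of 5 alveolar type 1 markers only Hopx passed, as a fall at the edge of the threshold (edgeR adjusted p = 0.0499). None of 4 goblet cell, 5 basal cell, 4 leukocyte or 4 skeletal muscle markers passed. At the shares over all genes, lists this short would hold few calls or none. The fibroblast, endothelial and Hopx calls are given here only for the fit with all libraries. The 4 leukocyte markers summed to 288 to 408 CPM in controls and 137 to 318 CPM in CCSP/TGFalpha lungs. No fibroblast, club cell, endothelial or alveolar type 2 marker was at 0. Cartilage markers of large airways had at most 0.595 CPM in sum, with Acan and Matn1 at 0 in all libraries. The part of these shifts in the values of cilium genes was not tested.

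Of 12 genes shared by all lung epithelium none passed, where 8.33% of all genes tested changed. Values above 0 were found for 11 of them, against 8191 of all 16089 genes tested. The sums were 746 to 807 CPM in controls and 631 to 917 CPM in CCSP/TGFalpha lungs. These genes did not move alike, since Epcam was higher (0.42, edgeR adjusted p = 0.132) and Cdh1 lower (-0.51, adjusted p = 0.105), each without overlap between groups. The sum of motile cilium gene CPM over the sum of these epithelial genes was 1.25, 1.22 and 1.2 in the controls. It was 0.494, 0.752 and 0.594 in the CCSP/TGFalpha libraries, all well below. When libraries were scaled to the epithelial genes, 10 motile cilium genes fell and all 39 stayed below 0, against a share of 1.82% of all genes that fell.

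The direction held more widely than the calls. With DESeq2 size factors or library totals the 16 falls stayed 16 (3.47% and 3% of all genes fell), and with no filter they were 17 (2.64%). A filter of at least 1 CPM in 3 libraries gave 18 of 38 genes (3.88%) and limma-voom 18 (3.72%). DESeq2 gave 26 (7.95%), of which 10 were not called by the main edgeR fit. These 10 were Foxj1, Rfx3, Dnah1, Dnah2, Dnah5, Ccdc65, Spef2, Tekt1, Tekt2 and Ccdc153. Leaving out control replicate 1, 2 or 3 gave 10, 1 and 3 falls, with 2.9%, 0.261% and 0.206% of all genes. Leaving out TGFalpha replicate 1, 2 or 3 gave 9, 6 and 12 falls, with 0.574%, 0.918% and 2.92% of all genes. At an unadjusted p below 0.05 the lower genes numbered 29, 28 and 29 without each control in turn (11.9%, 9.36% and 8.83% of all genes) and 28, 26 and 31 without each CCSP/TGFalpha library (9.59%, 12.3% and 12.7%). The median log2 fold change stayed between -1.10 and -0.84, and 38 of the 39 genes were below 0 in all 6 fits. The exception was Ccno, at 0.03 without TGFalpha replicate 2. The 6 fits share most libraries with the main fit and with one another, so their directions are not independent. Without both libraries that were high in skeletal muscle markers, 5 motile cilium genes fell (1.03% of all genes fell) and the median was -0.81. The 5 were Dnah9, Dnah6, Hydin, Cfap43 and Tppp3, while Ak7 no longer passed (edgeR adjusted p = 0.062). At an unadjusted p below 0.05, 26 were lower (9.93% of all genes). Of the 3 CCSP/TGFalpha libraries, replicate 1 was the lowest for 25 of the 39 genes.

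**Figure D4:**
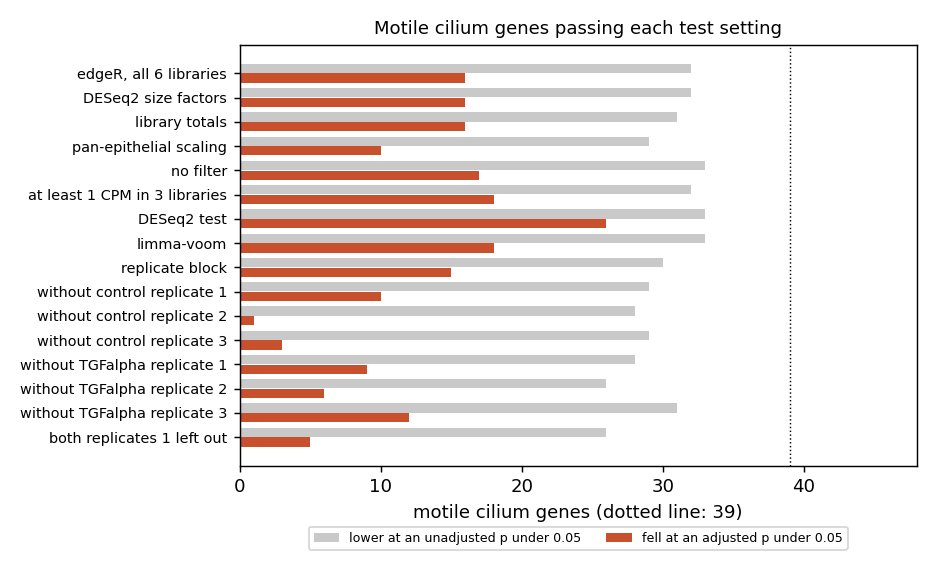
Number of the 39 motile cilium genes below control at an unadjusted p under 0.05 (grey bars) and number that fell at an adjusted p under 0.05 (orange bars), for each test, scaling, filter and set of libraries. The orange bars run from 1 without control replicate 2 to 26 with DESeq2, while the grey bars run from 26 to 33.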

How the data were processed

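RNA from whole mouse lung was sequenced in 3 CCSP/- and 3 CCSP/TGFalpha libraries. The deposited table holds raw read counts per gene identifier. Per the submitters' processing notes, bcl2fastq, CASAVA 1.8, TopHat and DESeq were used with mm10; the counter, its strand setting and the annotation are not given in the sources used here, so overlapping genes cannot be separated with certainty. Of 24061 identifiers, 85 have no symbol (1.73% to 3.8% of counts). The unnamed identifiers stayed in the library totals. Symbols were matched, older ones included, to NCBI identifiers. Coordinates are on GRCm38 (mm10), and transcript lengths come from GENCODE M21.

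Counts were filtered with filterByExpr by group (minimum count 10), which left 16089 genes and all 39 members with a row, and fitted with edgeR 4.0.16 (TMM, quasi-likelihood F test, group as the only term). P-values were adjusted by Benjamini-Hochberg over all genes tested, with a threshold of 0.05, and intervals are 95%. The common biological coefficient of variation was 0.295. On simulated counts for this comparison (16190 genes), 21% of 2-fold and 97% of 4-fold changes were recovered, with 5 false calls of 123. The simulation gave every gene this same variation and placed changes only in genes above a floor on mean counts. Its shares therefore need not hold for single genes of the real data. Alternatives used DESeq2 1.42.0, limma-voom 3.58.1, other scalings, filters, a stricter threshold of 0.01, a replicate block and left-out libraries; leaving out both replicates 1 was chosen after seeing the data. Levels per kilobase use the longest coding transcript.

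The members and lists were chosen with earlier results of these data known. All members are named, and from other cilium lists the 2 genes with the smallest adjusted p and the leading gene of opposite sign; other genes named were picked after their values were seen. Promoter stretches were shown for a single X-box arm because no member window held the strict X-box.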

Additional observations from a re-analysis of the deposited data

How the results depend on the processing

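No motile cilium gene with an edgeR call changed sign under any alternative, and over the 16 alternatives 516 of 623 gene values kept their side of the threshold, 90 lost a call and 17 gained one. The 16 falls among motile cilium genes became 10 with pan-epithelial scaling, 26 with DESeq2, 5 without both replicates 1, 1 at an adjusted p of 0.01, and 1 to 12 with 1 library left out. Falls among other ciliary motility genes (20) became 9, 32, 2, 2 and 1 to 18 in the same order. Falls over all genes (530) became 293, 1279, 166, 33 and 34 to 482, and changed genes (1340) became 802, 2621, 473, 260 and 238 to 1088. For intraflagellar transport and BBSome genes, DESeq2 gave 2 falls against 0, where the share of all genes that fell was 7.95% against 3.29%. The members' median of -1.01 moved to -0.81 without both replicates 1. The cause of these shifts was not tested. The share of calls that rose was 60.4% with TMM, 51.2% with DESeq2 and between 52.8% and 86% with 1 library left out.

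Replicate numbers shared between groups gave correlations of deviations of 0.4, -0.05 and 0.19, so the numbers were not taken to pair the samples, although both replicates 1 are high in skeletal muscle and basal cell markers. With the replicate block 15 motile cilium genes fell, 14 of them in common with the fit without it: Deup1 (adjusted p = 0.07) and Ccdc113 (0.062) no longer passed and Dnah5 did (0.038).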
